A study of Sus scrofa with 12 samples.

Results

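The ligands AREG, EREG, BTC and HBEGF of the epidermal growth factor (EGF) family, the receptors EGFR, ERBB2 and ERBB3, and the matrix genes TNFAIP6 and PTX3 were examined in whole porcine ovaries. They were taken by their exact symbols from a table of 29884 genes. A list of 10 symbols was searched, 9 were found, and the remaining symbol, HAS2, has no row of that name. RefSeq lists the porcine hyaluronan synthase 2 gene as SHAS2, with Has2 as a synonym, and the row SHAS2 is given beside the others as an addition.

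The left ovary was taken from sows 4 days after their 4th delivery, from 3 sows with small litters (SLS, 8.48 ± 0.53 piglets per litter) and 3 sows with large litters (LLS, 16.19 ± 0.43 piglets per litter; the study states mean ± SEM for its results in general). The SLS ovaries are named ZD2, ZD3 and ZD12, and the LLS ovaries ZD5, ZD7 and ZD8. All sows came from 1 commercial herd, no treatment is given in the labels, and each ovary gave 1 library of RNA depleted of ribosomal RNA without pooling. Each ovary also has a second sample marked as rep, which was taken here to be its small RNA library. Levels are in FPKM, the reads on a gene scaled to the length of its transcript and to the depth of the library, so that levels of different genes can be set side by side.

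In the ovary, the surge of luteinizing hormone raises cAMP in the granulosa cells that line a follicle. These cells then make AREG, EREG and BTC as membrane-bound precursors, which are cut free and bind EGFR on the cumulus cells around the oocyte. The cumulus cells answer by making hyaluronan with the enzyme HAS2. TNFAIP6 moves protein chains onto the hyaluronan, PTX3 links these chains into a network, and the cumulus swells before ovulation. ERBB2 has no known ligand of its own and pairs with the other receptors, while ERBB3 binds neuregulins and has little kinase activity.

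The read totals to which the gene libraries were scaled, as recovered from the FPKM values, lay between 32272803 (ZD8) and 60903268 (ZD2). ZD8 stood apart in its cell type markers, and the difference of each member is therefore given with and without it. The summed level of 7 luteal markers was 124 FPKM in ZD8, against 9167 to 12191 FPKM elsewhere, and all 7 were above 0 in ZD8, with STAR, the carrier of cholesterol into mitochondria, at 26.4 FPKM. Of these, 6 were lowest in ZD8, while PRLR, the prolactin receptor, was highest there (1.16 FPKM against 0 to 0.167 FPKM). The 2 theca markers summed to 415 FPKM in ZD8 and to between 9.31 and 74.4 FPKM in the others, and the 7 oocyte markers to 126 FPKM against 6.31 to 23.0 FPKM. The 7 granulosa markers summed to 152 FPKM in ZD8, against 186 to 857 FPKM, and moved in both directions. INHA, an inhibin subunit and the most abundant of them, was lowest in ZD8 (66.4 FPKM against 162 to 726 FPKM) and lower in LLS without overlap (unadjusted p = 0.0121, adjusted p = 0.999 by limma). FSHR, AMH and FOXL2 were highest in ZD8, INHBA and INHBB lay within the range of the others, and CYP19A1, the enzyme that makes oestrogen, was at 0 FPKM in 5 ovaries and 0.0137 FPKM in ZD5. Of the markers of other cell types, the sum of 4 endothelial genes was lowest in ZD8 (93.8 FPKM against 189 to 281 FPKM), with TEK within the range of the others. The sum of 4 neutrophil genes was highest there (5.18 against 1.14 to 2.56 FPKM) through S100A8 and S100A12, while S100A9 was lowest and CSF3R within the range. The sum of 4 macrophage genes was also highest in ZD8 (33.7 against 16.2 to 28.4 FPKM), and those of smooth muscle, fibroblast and epithelial genes lay within the range of the other ovaries. Of the smooth muscle genes, MYH11 was highest in ZD8 (190 FPKM against 15.5 to 47.1 FPKM), as was DES. Of the fibroblast genes, DCN and PDGFRA were highest and COL1A1 and COL1A2 lowest in ZD8. Between the groups, the epithelial gene EPCAM did not overlap, with 0.312, 0.339 and 1.28 FPKM in ZD2, ZD3 and ZD12 and 27.8, 9.73 and 2.31 FPKM in ZD5, ZD7 and ZD8 (unadjusted p = 0.00495, adjusted p = 0.999 by limma), and it was called without ZD8 (difference 3.47, adjusted p = 0.0221 by limma). KRT8 and KRT19 of the same list went the other way, with differences of -1.16 and -1.47 and groups that overlapped (adjusted p = 0.999 each by limma). Without ZD8 their differences were -1.88 and -2.05 (adjusted p = 0.561 and 0.233 by limma), with LLS lower without overlap. PECAM1, S100A9, CSF3R and KRT18 of the marker lists were lower in LLS without overlap, and of the 4 PECAM1 passed the filter on low levels (unadjusted p = 0.0557, adjusted p = 0.999 by limma). The luteal marker LHCGR was also lower in LLS without overlap and passed this filter (unadjusted p = 0.0177, adjusted p = 0.999 by limma).

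AREG, EREG and BTC lie in 1 cluster with the ligand gene EPGN on chromosome 8 of the Sscrofa11.1 assembly, to which the reads were mapped. EREG spans 70351316 to 70372530 and AREG 70417935 to 70428106, both on the plus strand, with their starts 66.6 kb apart. BTC lies at 70645721 to 70697538 on the minus strand. The 250 bases before the annotated start of AREG, of its neighbour EREG and of PTX3 are printed because AREG and PTX3 had the highest levels among the members and a like order of ovaries, while EREG was low. They were read from the RefSeq copy of Sscrofa11.1, at chr8:70417685-70417934, chr8:70351066-70351315 and chr13:97273344-97273593, all on the plus strand. Capitals mark the cAMP response element TGACGTCA, the site that the factor CREB binds, and its core TGACG on either strand, which the full element holds on both strands.
AREG: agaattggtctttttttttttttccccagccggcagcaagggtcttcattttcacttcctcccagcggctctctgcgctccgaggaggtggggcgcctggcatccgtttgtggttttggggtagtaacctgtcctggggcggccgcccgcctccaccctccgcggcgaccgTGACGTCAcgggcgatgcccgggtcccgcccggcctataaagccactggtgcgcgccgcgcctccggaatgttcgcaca
EREG: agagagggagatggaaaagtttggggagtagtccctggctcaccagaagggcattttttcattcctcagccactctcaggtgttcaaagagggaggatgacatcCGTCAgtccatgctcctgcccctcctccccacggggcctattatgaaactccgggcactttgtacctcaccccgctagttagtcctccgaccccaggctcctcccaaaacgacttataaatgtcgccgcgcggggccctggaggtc
PTX3: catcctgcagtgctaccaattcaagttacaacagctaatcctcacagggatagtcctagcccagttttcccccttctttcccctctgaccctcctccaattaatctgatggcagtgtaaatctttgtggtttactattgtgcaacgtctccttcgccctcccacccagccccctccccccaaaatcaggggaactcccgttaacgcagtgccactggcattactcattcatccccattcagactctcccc

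Both strands were searched. The AREG stretch holds 1 full element, at positions -79 to -72 counted back from the first base of the annotated gene. A full element was found in 336 of 20638 promoters of the same length (1.63%). EREG has 1 core, on the other strand at positions -146 to -142, and a core, alone or within a full element, is in 19.2% of the promoters. TNFAIP6 also has 1 core, at positions -164 to -160, and 1 match to TGANTCA, the site of the factor AP-1, at -129 to -123, which 5.47% of the promoters hold. No full element or core was found in this window of BTC, HBEGF, EGFR, ERBB2, ERBB3, PTX3 or SHAS2. The motif AAGGTCA of the steroidogenic factor NR5A1, in 3.24% of the promoters, was found in none of the members. These are matches of letters in the annotated window.

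PTX3 was the most abundant member, with a median of 164 FPKM over the 6 ovaries. It was followed by AREG (31.2 FPKM), EGFR (19.5 FPKM), ERBB2 (10.9 FPKM), TNFAIP6 (3.42 FPKM) and HBEGF (2.91 FPKM). ERBB3 (0.594 FPKM), BTC (0.588 FPKM) and EREG (0.211 FPKM) had medians under 1 FPKM. PTX3 was above AREG in 6 of 6 ovaries, EGFR above ERBB2 in 6 of 6 and ERBB2 above TNFAIP6 in 6 of 6. The other neighbours in this order were not separated in every ovary. AREG was above EGFR in 4 of 6 ovaries and TNFAIP6 above HBEGF in 3 of 6. HBEGF was above ERBB3, ERBB3 above BTC, and BTC above EREG in 4 of 6 ovaries each.

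**Figure D1:**
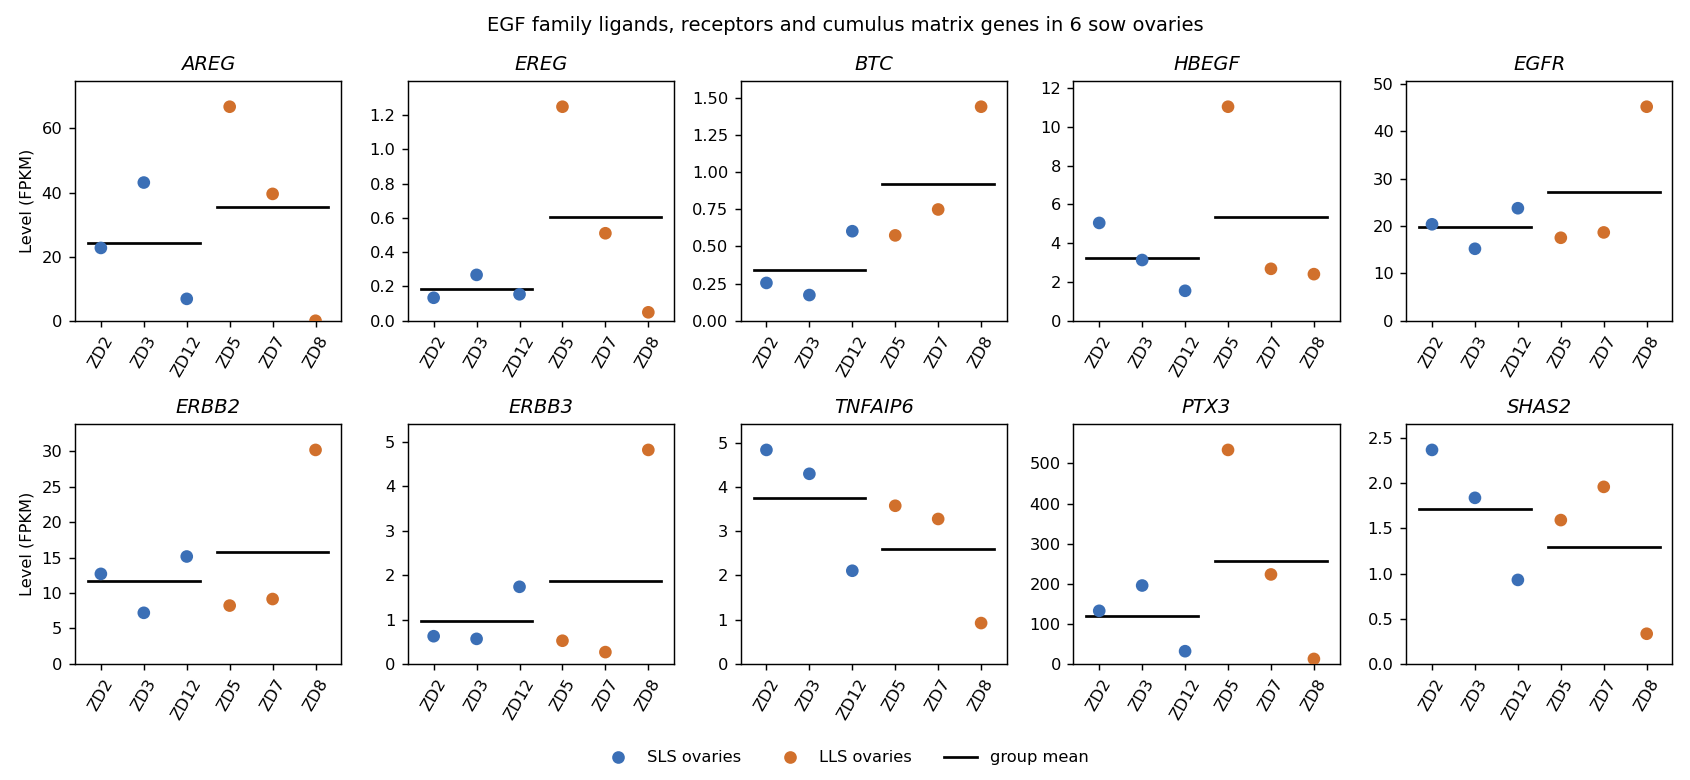
Level of each gene (FPKM, linear axis from 0, one panel per gene) in the 3 SLS and 3 LLS ovaries; points are single ovaries and lines are group means (n = 3). In ZD8, AREG sat at 0 and PTX3 at 12.5 FPKM, while EGFR, ERBB2, ERBB3 and BTC had their highest point there.

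The comparison of LLS with SLS asks whether the EGF network of the ovary differs with litter size. No member passed the test (0 of 6 tested), and none of the 9 had groups that did not overlap. Differences were tested with limma (trended variance) on log2(FPKM + 1), fitted on the 12260 genes with at least 1 FPKM in at least 3 libraries. Calls needed an adjusted p (Benjamini-Hochberg) below 0.05 together with a log2 fold change over 1 in size. This was met by 0% of all tested genes, and no gene had an adjusted p below 0.860 by limma. On reads recovered from the FPKM values, edgeR called 0 genes and DESeq2 20, with no member among them. At an unadjusted p under 0.05 there were 216 genes (1.76%) and 0 members. Groups that did not overlap were found for 5.12% of the tested genes (1.95% with LLS higher and 3.17% with LLS lower). The mean of log2(FPKM + 1) was lower in LLS for 2 of the 6 tested members (AREG and TNFAIP6) and for 47.4% of the tested genes. The 3 members EREG, BTC and ERBB3 did not pass the filter on low levels and are given by their values. In these whole ovaries, a lower level can stand for fewer cells of a type or for less RNA per cell, which cannot be told apart.

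AREG (amphiregulin) was the second ligand gene of EGFR by median level, after TGFA. Its level was 22.7, 43.1 and 6.83 FPKM in ZD2, ZD3 and ZD12 of SLS, and 66.8, 39.6 and 0 FPKM in ZD5, ZD7 and ZD8 of LLS. ZD5 was the highest and ZD8 the lowest, and the groups overlapped. The values came from 437 to 4650 reads in the first 5 ovaries and from 0 reads in ZD8. A count of 0 allows up to 3 reads, or 0.0769 FPKM, so that AREG was at least 88.8-fold higher in ZD12, the next lowest ovary (counting error only). Of the genes that every cell uses, ACTB was at 809 FPKM in ZD8 (733 to 1503 FPKM in the others), EEF1A1 at 6191 FPKM (2775 to 4825 FPKM) and GAPDH at 113 FPKM, below the 292 to 448 FPKM of the others. Only 4 of the 29884 genes had 0 FPKM in ZD8 with at least 5 FPKM in each other ovary, and the other 3 were BSP1, IBSP and UNC93A.

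The mean level of AREG was 24.2 ± 18.2 FPKM in SLS and 35.5 ± 33.6 FPKM in LLS (SD, n = 3). On the log2(FPKM + 1) scale the direction was the opposite, with a difference of LLS from SLS of -0.52 (standard error 1.45, adjusted p = 0.999 by limma, exact two-sided permutation p = 0.9 over 3 ovaries against 3). The smallest p that this permutation test can give is 0.1. Without ZD8 the difference turned to 1.38 (standard error 0.59, unadjusted p = 0.0412, adjusted p = 0.787 by limma), and SLS and LLS still overlapped, since ZD3 was above ZD7. The difference was 0.0400 without ZD3, so that the direction of AREG rested on single ovaries. Of the 7 luteal markers, 6 were also lowest in ZD8, and their part in the level of AREG was not tested.

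EREG (epiregulin), beside AREG on the chromosome, stayed low. It was at 0.134, 0.268 and 0.154 FPKM in ZD2, ZD3 and ZD12, and at 1.25, 0.511 and 0.0492 FPKM in ZD5, ZD7 and ZD8. These levels rest on 36, 61, 36, 317, 137 and 7 reads. ZD5 was the highest and ZD8 the lowest, as for AREG. The means were 0.185 ± 0.0720 FPKM in SLS and 0.603 ± 0.606 FPKM in LLS (SD, n = 3). LLS differed from SLS by 0.37 on the log2(FPKM + 1) scale (exact permutation p = 0.4), and it was 0.0886 without ZD5 and 0.64 without ZD8, where both LLS ovaries lay above all 3 SLS ovaries.

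HBEGF (heparin-binding EGF-like growth factor, chromosome 2, 142102455 to 142115192, minus strand) was at 5.04, 3.13 and 1.54 FPKM in ZD2, ZD3 and ZD12. In ZD5, ZD7 and ZD8 it was at 11.04, 2.68 and 2.40 FPKM. ZD5 again had the highest value, ZD12 the lowest, and ZD8 lay within the range of the others. The means were 3.24 ± 1.75 FPKM in SLS and 5.37 ± 4.91 FPKM in LLS (SD, n = 3). The difference was 0.42 (standard error 0.54, adjusted p = 0.999 by limma), and it was 0.74 without ZD8 and -0.17 without ZD5.

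BTC (betacellulin) followed another order of ovaries. It was at 0.254, 0.173 and 0.602 FPKM in ZD2, ZD3 and ZD12 and at 0.574, 0.749 and 1.44 FPKM in ZD5, ZD7 and ZD8, from 30 to 156 reads. ZD8 was the highest, 1.92 times the next ovary, and ZD3 the lowest. Mean levels were 0.343 ± 0.228 FPKM (SLS) and 0.921 ± 0.458 FPKM (LLS, SD, n = 3). The difference of 0.50 (exact permutation p = 0.2) was 0.32 without ZD8, and the groups overlapped in both cases.

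The remaining ligands of EGFR were taken from a list of 7 other family genes. TGFA (transforming growth factor alpha) was the most abundant ligand, with 60.2, 76.5 and 30.9 FPKM in ZD2, ZD3 and ZD12 and 164, 158 and 2.24 FPKM in ZD5, ZD7 and ZD8. Its difference of -0.28 (standard error 1.36, adjusted p = 0.999 by limma) turned to 1.60 without ZD8 (unadjusted p = 0.00123, adjusted p = 0.162 by limma), where the groups did not overlap. ZD8 was the highest ovary for 5 of the 7 genes, among them EGF and the neuregulins NRG1 and NRG4, with EGF at 1.53 FPKM there and at 0.136 to 0.351 FPKM in the others, and NRG1 at 3.19 FPKM against 0.264 to 0.719 FPKM. Of these 7 genes 2 were tested (TGFA and NRG4), and 0 were called.

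**Figure D2:**
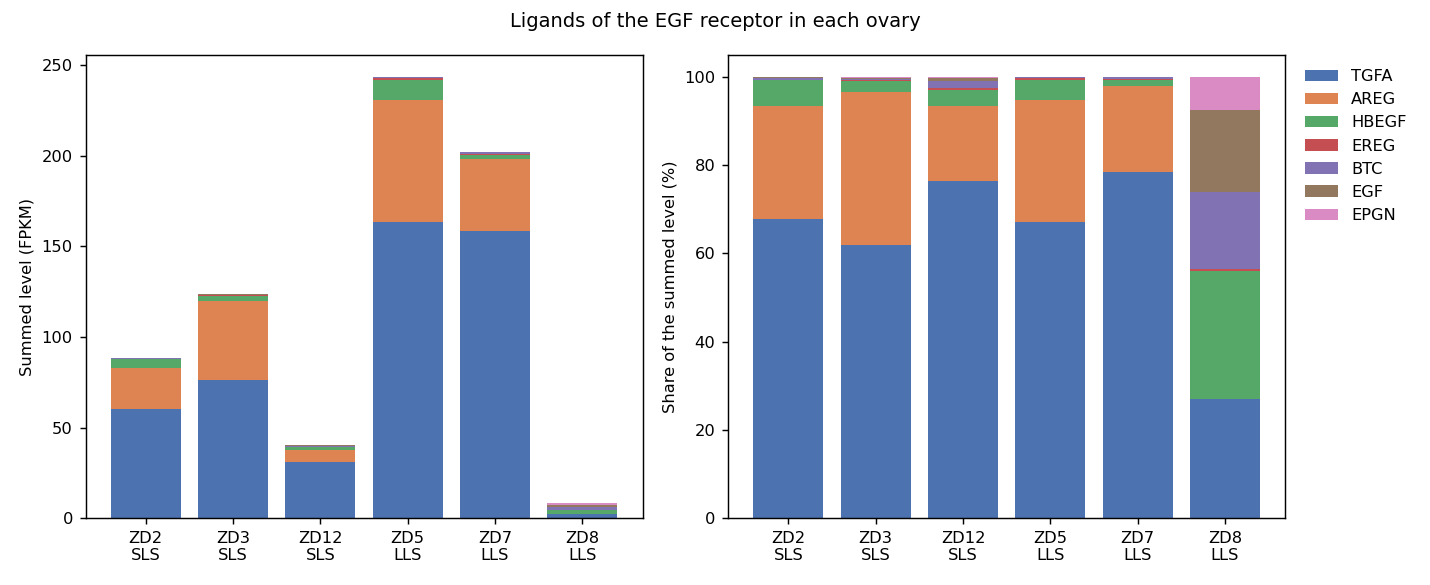
Summed FPKM of the 7 ligand genes of EGFR in each ovary (left) and the share of each gene in that sum (right, percent); each bar is 1 ovary and colours are genes. The sum ran from 8.29 FPKM in ZD8 to 244 FPKM in ZD5, and AREG and TGFA made up most of it in all ovaries except ZD8.

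Summed over AREG, EREG, BTC, HBEGF, EGF, TGFA and EPGN, the ligand genes reached 88.7, 124 and 40.5 FPKM in ZD2, ZD3 and ZD12 of SLS and 244, 202 and 8.29 FPKM in ZD5, ZD7 and ZD8 of LLS. AREG held between 16.9% (ZD12) and 34.8% (ZD3) of the sum outside ZD8, and TGFA between 61.8% and 78.4%. In ZD8, TGFA was down to 27.0%, and HBEGF held 29.0%, EGF 18.5% and BTC 17.4%. The 4 receptor genes EGFR, ERBB2, ERBB3 and ERBB4 summed to between 24.3 and 41.3 FPKM in the other 5 ovaries and to 80.7 FPKM in ZD8. These sums describe single ovaries, and no test was made on them.

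EGFR, the receptor of AREG, EREG, BTC, HBEGF, EGF and TGFA, spans 139302410 to 139474632 on the plus strand of chromosome 9 in 28 exons. It was at 20.4, 15.2 and 23.8 FPKM in ZD2, ZD3 and ZD12 and at 17.5, 18.6 and 45.2 FPKM in ZD5, ZD7 and ZD8. The first 5 ovaries lay within 1.56 times of each other, the narrowest spread of the 9 members, and ZD8 was 1.90 times the highest of them. SLS averaged 19.8 ± 4.31 FPKM and LLS 27.1 ± 15.7 FPKM (SD, n = 3). The difference was 0.32 (standard error 0.40, adjusted p = 0.999 by limma), and it was -0.10 without ZD8 (standard error 0.26).

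ERBB2 (chromosome 12, 22591621 to 22621384, minus strand) was at 12.7, 7.21 and 15.2 FPKM in ZD2, ZD3 and ZD12 and at 8.23, 9.16 and 30.2 FPKM in ZD5, ZD7 and ZD8. ZD8 was the highest, 1.99 times ZD12, and ZD3 the lowest. SLS averaged 11.7 ± 4.07 FPKM and LLS 15.9 ± 12.4 FPKM (SD, n = 3). The difference of 0.23 (standard error 0.50, adjusted p = 0.999 by limma) was -0.33 without ZD8 (standard error 0.31).

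ERBB3 (chromosome 5, 21474218 to 21495040, plus strand) was lower than both, at 0.624, 0.564 and 1.74 FPKM in ZD2, ZD3 and ZD12 and 0.522, 0.266 and 4.82 FPKM in ZD5, ZD7 and ZD8, from 90 to 863 reads. ZD8 was 2.77 times ZD12, the next ovary. SLS averaged 0.975 ± 0.660 FPKM and LLS 1.87 ± 2.56 FPKM (SD, n = 3). The difference was 0.23 (exact permutation p = 1) and -0.46 without ZD8, where both LLS ovaries lay below all 3 SLS ovaries. ERBB4, the second neuregulin receptor and no member here, was at 0.619, 1.28 and 0.644 FPKM in the SLS ovaries and 0.343, 0.270 and 0.562 FPKM in ZD5, ZD7 and ZD8 of LLS, without overlap, and did not pass the filter on low levels.

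The miRNAs known to repress these receptors were read in the small RNA libraries, with levels in RPM, the reads of a miRNA scaled to the reads of its library. miR-125a and miR-125b are known as repressors of ERBB2 and ERBB3, miR-7 of EGFR and miR-205 of ERBB3. Their mature sequences are printed as the miRNA table lists them, in DNA letters, with the seed (bases 2 to 8) in capitals.
miR-125b: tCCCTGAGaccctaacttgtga
miR-125a: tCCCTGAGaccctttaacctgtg
miR-7-5p: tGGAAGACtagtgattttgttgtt
miR-205: tCCTTCATtccaccggagtctg

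miR-125a and miR-125b share 1 seed, whose match is CTCAGGG. The annotated 3′ UTR of ERBB2 (649 nt in the longest transcript) holds 1 match, at chr12:22592227-22592233 on the minus strand, and that of ERBB3 (1128 nt) holds 2, at chr5:21493931-21493937 and chr5:21494184-21494190 on the plus strand. ERBB3 also holds 1 match to the seed of miR-205, ATGAAGG, at chr5:21494206-21494212. The 3′ UTR of EGFR (1279 nt) has 0 matches to any of these seeds, that of miR-7 included. The sites are printed with their neighbouring bases, and capitals mark the match.
ERBB2, miR-125: gaggccgtgctgaaccCTCAGGGagcgt
ERBB3, miR-125, first site: tctgcttcctgaatacCTCAGGGagcat
ERBB3, miR-125, second site: cctattcctcaactttCTCAGGGgaact
ERBB3, miR-205: ggaactccctggagatATGAAGGattcc

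miR-125b was abundant, at 10019, 22910 and 45391 RPM in ZD2, ZD3 and ZD12 of SLS and at 15968, 14288 and 34932 RPM in ZD5, ZD7 and ZD8 of LLS. miR-125a was at 1472, 4160 and 8083 RPM and at 4200, 3225 and 6653 RPM in the same order. Both had their highest levels in ZD12 and ZD8, the ovaries with the highest levels of ERBB2 and ERBB3. EGFR, with no match to their seed, also had its highest levels in ZD8 and ZD12. Of all tested genes, 44.6% were highest in ZD8, and 39.6% were highest in ZD12 among the other 5 ovaries. miR-7-5p was lowest in ZD8 (645 RPM, against 1360 to 4062 RPM in the others), where EGFR was highest, and miR-205 was at 6.65 to 55.5 RPM. The differences of LLS from SLS on the log2(RPM + 1) scale were -0.13 for miR-125b (standard error 0.63), 0.29 for miR-125a (0.63), -0.39 for miR-7-5p (0.70) and -0.35 for miR-205 (0.76). Without ZD8 they were -0.53, 0.0031, 0.35 and -1.01 in the same order. None was called (adjusted p = 0.997 each by limma, over 353 miRNAs of which 0% were called, and 0 at an unadjusted p under 0.05). Whether a miRNA acts on a receptor was not measured in these libraries.

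**Figure D3:**
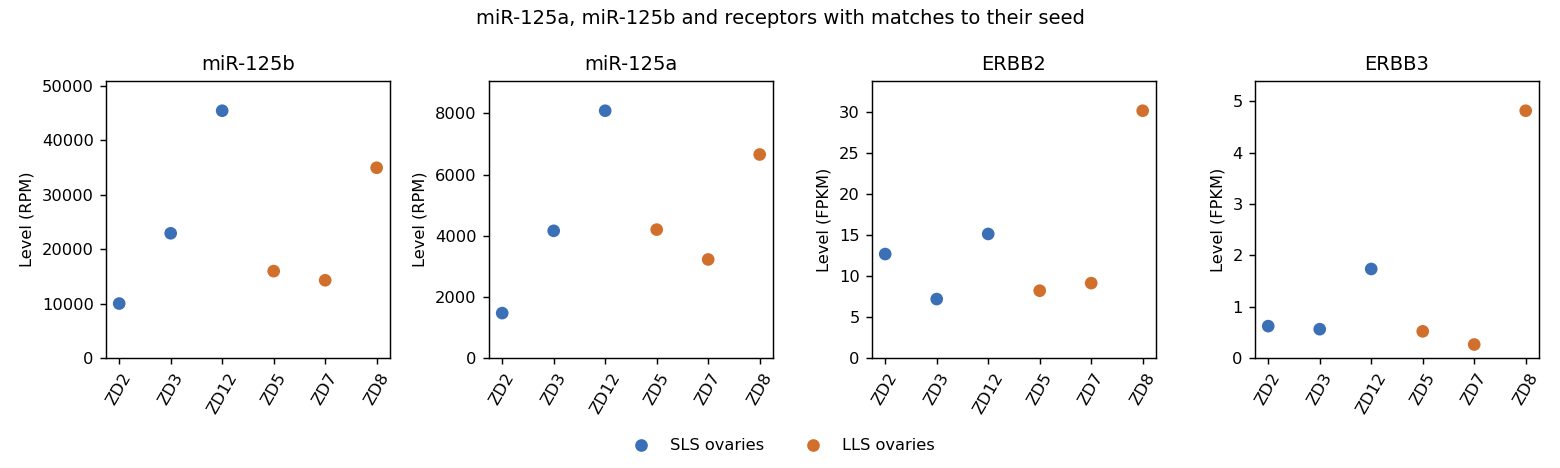
Levels of miR-125b and miR-125a (RPM) in the small RNA libraries and of ERBB2 and ERBB3 (FPKM) in the gene libraries of the same 6 ovaries; linear axes from 0, points are single ovaries. ZD12 and ZD8 hold the 2 highest points in each panel, as they do for EGFR, which has no match to this seed.

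PTX3 (pentraxin 3, chromosome 13, 97273594 to 97279570, plus strand, 3 exons) showed the widest range of the members with reads in every ovary. It was at 132, 196 and 31.8 FPKM in ZD2, ZD3 and ZD12 and at 534, 223 and 12.5 FPKM in ZD5, ZD7 and ZD8, a range of 42.7 times. ZD5 was highest, as for AREG, EREG and HBEGF, and ZD8 lowest, as for AREG and EREG. The values came from 761 to 58012 reads. VEPH1, which spans PTX3 on the opposite strand, was at no more than 0.330 FPKM. The means were 119.9 ± 82.6 FPKM in SLS and 256 ± 262 FPKM in LLS (SD, n = 3). LLS was above SLS by 0.30 on average (standard error 1.27), with an adjusted p = 0.999 in limma and an exact permutation p = 0.8. Without ZD8 it was 1.86 (standard error 0.66, unadjusted p = 0.0190, adjusted p = 0.586 by limma), and both LLS ovaries lay above all 3 SLS ovaries. It was -0.46 without ZD12, -0.79 without ZD5 and -0.16 without ZD7, so that its direction also rested on single ovaries.

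TNFAIP6 (the hyaluronan-binding protein TSG-6, chromosome 15, 862013 to 881352, minus strand) was at 4.83, 4.29 and 2.10 FPKM in ZD2, ZD3 and ZD12 and at 3.57, 3.27 and 0.923 FPKM in ZD5, ZD7 and ZD8, from 42 to 415 reads. ZD8 was the lowest, and ZD2 and ZD3 were the highest. SLS averaged 3.74 ± 1.44 FPKM and LLS 2.59 ± 1.45 FPKM (SD, n = 3). The difference of -0.45 (standard error 0.42, adjusted p = 0.999 by limma) was -0.0502 without ZD8 (standard error 0.31). SHAS2, the gene for hyaluronan synthase 2 (chromosome 4, 17583154 to 17613524, plus strand), was at 2.37, 1.84 and 0.930 FPKM in the SLS ovaries and 1.59, 1.96 and 0.334 FPKM in ZD5, ZD7 and ZD8, from 32 to 428 reads. ZD8 was lowest, and the means were 1.71 ± 0.728 FPKM in SLS and 1.296 ± 0.853 FPKM in LLS (SD, n = 3). The difference of -0.28 (standard error 0.39, adjusted p = 0.999 by limma) was 0.0679 without ZD8. A neighbouring gene annotated as hyaluronan synthase 2-like had at most 0.0234 FPKM.

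**Figure D4:**
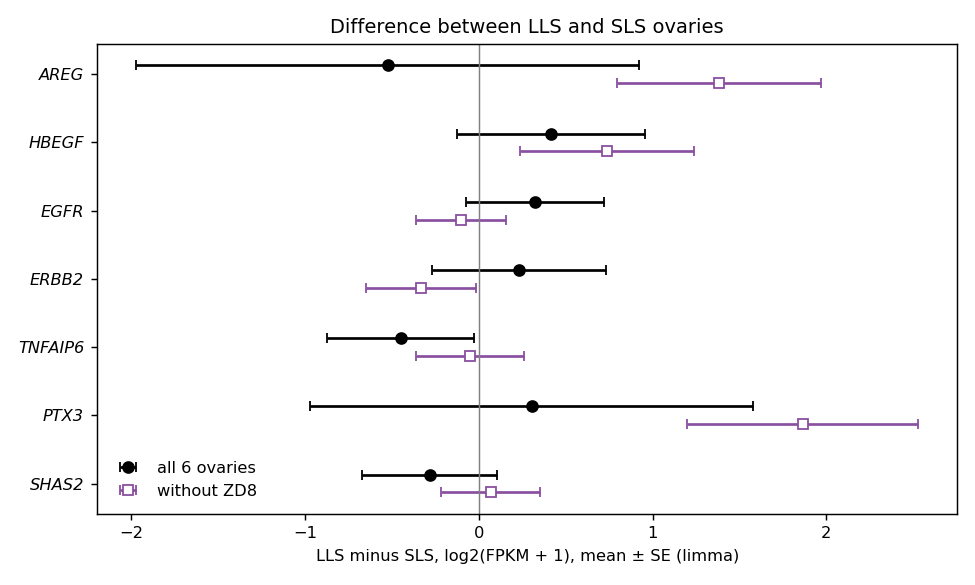
Difference of LLS from SLS on the log2(FPKM + 1) scale for SHAS2 and the 6 members that passed the filter on low levels; circles are fits on all 6 ovaries, squares are fits without ZD8, and bars are standard errors by limma. AREG moved from -0.52 to 1.38 and PTX3 from 0.30 to 1.86 when ZD8 was left out.

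Without ZD8, 20 of 11985 genes were called between LLS and SLS (0.167%) and 0 of the 6 tested members. At an unadjusted p under 0.05 there were 5.92% of the genes and 2 of the 6 members, AREG and PTX3. Both had their lowest level in ZD8, so that leaving out this LLS ovary raises their LLS mean by construction. Groups did not overlap for 19.1% of the genes and for 1 of the 6 tested members, PTX3, which was higher in LLS as were 7.44% of the genes (11.7% were lower). The median difference over the tested members was 0.27 with all ovaries (0.02 over all tested genes) and 0.34 without ZD8 (-0.10 over all genes).

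The place of ZD8 was described for each member beside all genes. ZD8 was below every other ovary for 3 of the 6 tested members (AREG, TNFAIP6 and PTX3), where 26.3% of all tested genes had this order. Its level was at most 1 / 2 of the lowest other ovary for the same 3 members, against 7.53% of all tested genes. ZD8 was above every other ovary for EGFR and ERBB2, an order found in 44.6% of the genes, and for neither did the level reach 2 times the highest other ovary, which 10.3% of the genes did. Of the members under the filter, EREG was lowest and BTC and ERBB3 were highest in ZD8.

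Among the other 5 ovaries, the SLS ovary ZD12 was the lowest for AREG, HBEGF, TNFAIP6 and PTX3, 4 of the 6 tested members, where 8.61% of all tested genes had their lowest level in it. It was the highest of these 5 for EGFR and ERBB2, and 39.6% of all genes had that order. Among these 5, the granulosa markers FSHR, AMH, FOXL2 and INHBB were highest in ZD12. FSHR, the receptor of follicle-stimulating hormone, was at 4.501 FPKM against 0.202 to 2.68 FPKM, and the inhibin subunit INHBB at 84.6 FPKM against 4.57 to 21.7 FPKM. INHA was also highest in ZD12 (726 FPKM against 162 to 553 FPKM), while INHBA was not. The summed theca markers (74.4 FPKM against 9.31 to 18.9 FPKM) and oocyte markers (23.0 FPKM against 6.31 to 12.02 FPKM) were highest in ZD12 among these 5 as well. In ZD8, FSHR was at 10.8, INHBB at 21.6 and INHA at 66.4 FPKM. Their part in the levels of the members was not tested. The LLS ovary ZD5 was the highest of all 6 for AREG, HBEGF and PTX3, 3 of the 6 tested members, against 8.24% of the genes.

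**Figure D5:**
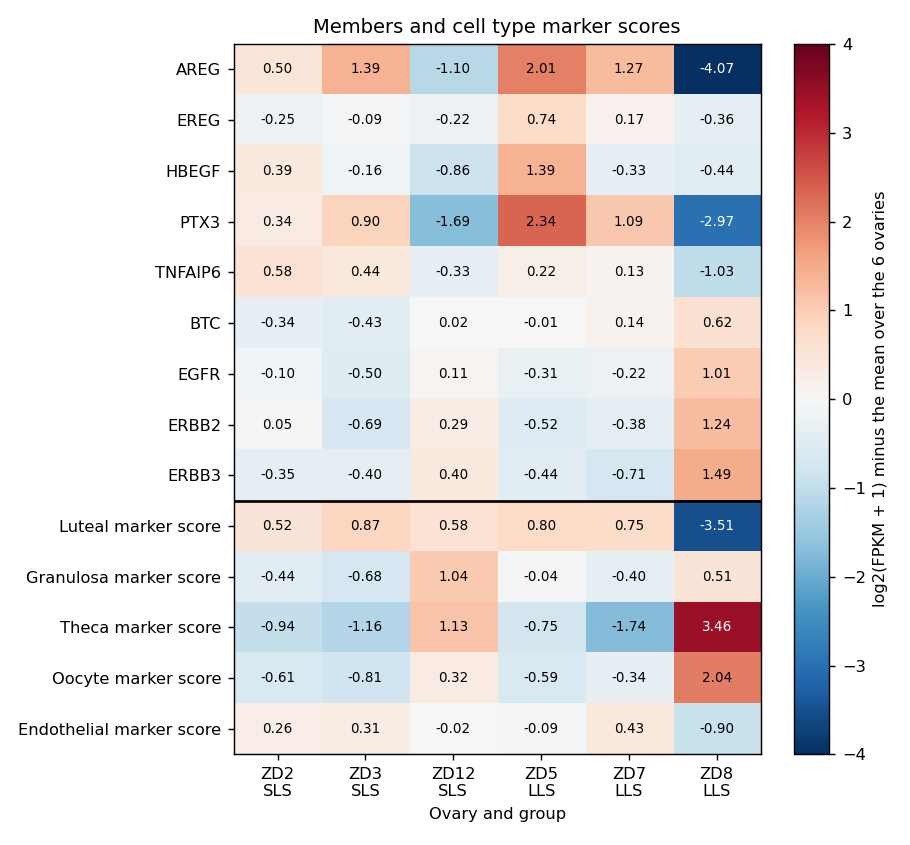
Members (upper rows) and cell type marker scores (lower rows) in each ovary, as log2(FPKM + 1) minus the mean over the 6 ovaries; a score is the mean of that value over the genes of a marker list. The luteal score was -3.51 in ZD8 and 0.52 to 0.87 in the others, and the theca score was 3.46 in ZD8 and 1.13 in ZD12.

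For the most abundant member of each role, the 3 genes with the most similar pattern were found by Pearson's r of log2(FPKM + 1) over the 6 ovaries, among the tested genes. For AREG they were LIPH (r = 0.997), NSF (0.995) and PIGG (0.994). LIPH, a phospholipase, was also at 0 FPKM in ZD8 and at 2.81 FPKM in ZD12, against 8.41 to 14.7 FPKM in the other 4 ovaries. For PTX3 they were FMO5 (0.993), CD209 (0.990) and KCNJ8 (0.989), and for EGFR they were LIG3 (0.999), HHAT (0.998) and QRICH1 (0.998). An r over 0.95 was reached by 185 genes for AREG, 81 for PTX3 and 1044 for EGFR, and all these values share the 6 libraries and the distance of ZD8 from the rest.

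The wider pathway was read from 7 lists with 66 genes, all of them in the table and 52 of them tested. None of the 52 was called, and the smallest adjusted p was 0.999 in limma. An unadjusted p below 0.05 was found for 3 (LHCGR, LYVE1 and HAS3), and for 1.76% of all tested genes. Groups did not overlap for 1 of the 10 tested inhibitors and feedback genes (LLS higher) and 2 of the 8 tested ovulatory genes (LLS lower). Among the 10 tested hyaluronan partners this held for 1 with LLS higher and 2 with LLS lower. In the other lists no tested gene had such groups, and the share over all tested genes was 5.12%. In the list of shedding and trafficking, the protease ADAM10, which frees BTC and EGF, was at 46.0 to 115 FPKM in SLS and 141, 110 and 32.8 FPKM in ZD5, ZD7 and ZD8. ADAM17, which frees AREG, EREG, HBEGF and TGFA, kept to 15.7 to 17.7 FPKM in all 6 ovaries. The rhomboid-like proteins RHBDF1 and RHBDF2, which carry ADAM17 to the cell surface, were at 9.43 to 15.9 FPKM and 2.75 to 6.47 FPKM. The median difference over these 4 genes was -0.10.

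The signal relay behind the receptors had 18 tested genes, a median difference of -0.13 and 0 calls. Its most abundant genes were the kinase MAPK3 (74.5 to 113 FPKM), the transcription factor STAT3 (57.1 to 98.8 FPKM), the GTPase NRAS (46.8 to 73.5 FPKM) and the kinase AKT1 (41.5 to 71.1 FPKM). ZD8 was the lowest ovary for 7 and the highest for 4 of the 18 genes. The list of inhibitors and feedback genes had 10 tested genes, a median difference of 0.13 and 0 calls. CBL, which marks EGF receptors for breakdown and was named after its values were seen, was at 15.8, 18.4 and 15.9 FPKM in ZD2, ZD3 and ZD12 and at 19.1, 19.3 and 18.9 FPKM in ZD5, ZD7 and ZD8, without overlap (unadjusted p = 0.445, adjusted p = 0.999 by limma). The phosphatases DUSP4 and DUSP6, induced by and acting against this relay, were lowest in ZD8, at 11.7 FPKM against 36.4 to 54.9 FPKM and at 6.59 FPKM against 12.5 to 26.0 FPKM. LRIG1, which sends EGF receptors to breakdown, was highest in ZD8, at 39.6 FPKM against 14.0 to 21.1 FPKM. SPRY2 was at 24.7 to 35.7 FPKM.

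Of the 11 genes for ovulatory signals around the EGF family, 8 were tested, with a median difference of -0.28 (-0.16 without ZD8) and 0 calls. LHCGR, the receptor of luteinizing hormone, was at 27.8, 70.5 and 46.1 FPKM in ZD2, ZD3 and ZD12 and at 22.5, 24.2 and 10.4 FPKM in ZD5, ZD7 and ZD8, and the groups did not overlap. Its difference of -1.28 (standard error 0.43, unadjusted p = 0.0177, adjusted p = 0.999 by limma) was -0.92 without ZD8. CEBPB, a factor that acts downstream of luteinizing hormone, was at 75.9 to 146 FPKM in SLS and 73.9, 117 and 19.6 FPKM in ZD5, ZD7 and ZD8. The progesterone receptor PGR was at 5.74 FPKM in ZD8 and 12.9 to 25.4 FPKM in the others, and NPR2, the receptor of C-type natriuretic peptide, was at 23.6 FPKM in ZD8 and 6.61 to 12.8 FPKM in the others. PTGS2, the prostaglandin synthase that EGF receptor signals induce in the follicle, was named after its values were seen, since its groups did not overlap. It was at 1.44, 1.81 and 1.21 FPKM in ZD2, ZD3 and ZD12 and at 0.870, 0.609 and 0.343 FPKM in ZD5, ZD7 and ZD8 (unadjusted p = 0.0503, adjusted p = 0.999 by limma).

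Of the 15 partners of the hyaluronan matrix, 10 were tested, with a median difference of -0.47 (-0.27 without ZD8) and 0 calls. The proteoglycan VCAN was at 227, 254 and 111 FPKM in ZD2, ZD3 and ZD12 and at 175, 367 and 24.0 FPKM in ZD5, ZD7 and ZD8. ADAMTS1, a protease that cuts versican, was at 36.5 to 81.9 FPKM in SLS and 34.7 to 54.7 FPKM in LLS. The hyaluronan receptor LYVE1 was at 24.1 to 38.0 FPKM in SLS and 7.65 to 19.6 FPKM in LLS without overlap (difference -1.17, standard error 0.37, unadjusted p = 0.0120, adjusted p = 0.999 by limma), and the hyaluronidase gene HYAL2 was at 11.9 to 27.5 FPKM. The hyaluronan receptor CD44 and HAS3, another hyaluronan synthase, were named after their values were seen, since their groups did not overlap. CD44 was at 19.1, 18.5 and 15.1 FPKM in ZD2, ZD3 and ZD12 and at 12.3, 15.0 and 4.27 FPKM in ZD5, ZD7 and ZD8 (unadjusted p = 0.0833, adjusted p = 0.999 by limma). HAS3 was at 2.80, 2.03 and 1.998 FPKM in ZD2, ZD3 and ZD12 and at 7.16, 5.36 and 4.36 FPKM in ZD5, ZD7 and ZD8, without overlap (difference 1.004, standard error 0.29, unadjusted p = 0.0078, adjusted p = 0.999 by limma).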

How the data were processed

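Gene levels and miRNA levels were measured in 6 ovaries each, and groups followed the authors' labels. The authors trimmed reads with NGSQCToolkit, mapped them to Sscrofa11.1 with HISAT2 and deposited 1 FPKM value per gene and library. The miRNA values, named TPM, were deposited by the authors in RPM, reads scaled to the reads of the library, and the submitters' processing notes name BWA. Programs that counted reads, and whether strand was used, are not given in the sources used here. All columns of values were used.

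Computed from these were group differences by limma 3.58.1 in R 4.3.3 on log2(value + 1), with at least 1 FPKM or 1 RPM in at least 3 libraries, and exact two-sided permutation tests. The tests of the study's methods, DESeq2 for genes and edgeR for miRNAs, need counts, and both were run as alternatives for genes (DESeq2 1.42.0 and edgeR 4.0.16 by quasi-likelihood) on reads recovered from FPKM and the longest RefSeq transcript, which were whole within 0.001 reads for 23487 of 23564 genes above 0 FPKM (99.7%). Small RNA libraries held 3537619 to 9854086 reads, where 3 reads are 0.304 to 0.848 RPM. In gene libraries 3 reads on 1 kb are 0.0493 to 0.0930 FPKM. The fits were checked on simulated data in which no ovary stood apart as ZD8 does, so that the check does not cover this feature.

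Named genes were the members, up to 4 genes a list by mean FPKM, and the 3 most similar genes for 1 member of each role. EPGN was added as a gene of the ligand cluster and sum, marker genes and genes at 0 in ZD8 were added to describe that ovary, and other exceptions are marked. The members, lists and alternatives were chosen with earlier results of these data known, and an alternative with TMM factors was added after the files were seen. Of the 7 epithelial and mesothelial markers, 6 were listed. Cell type scores are means of centred log2(FPKM + 1). Promoters and 3′ UTRs were read from the RefSeq genome and annotation of the same build, with a search of 250 bases before each annotated gene start.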

Additional observations from a re-analysis of the deposited data

How the results depend on the processing

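No member was called under any of 16 alternatives (0 of 6 tested, or of 9 without the filter), with a smallest adjusted p of 0.275 for a member. The count of genes called, 0, rose to 13 with limma's array weights (6 higher, 7 lower) and to 20 by DESeq2 (11 higher, 9 lower), and lay between 0 and 20 when single ovaries were left out, the 20 being those without ZD8 (14 higher, 6 lower). It stayed at 0 under the other alternatives, among them edgeR (quasi-likelihood) and TMM factors, the setting added after seeing the data. Array weights moved the median difference of all genes from 0.02 to -0.12.

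The difference of AREG (-0.52) was -1.56 with a pseudocount of 0.1, and turned to 0.0067 with a pseudocount of 5, 1.65 under array weights, 0.63 in edgeR and 0.61 in DESeq2. Array weights also turned EGFR to -0.17, ERBB2 to -0.46, TNFAIP6 to 0.0483 and SHAS2 to 0.13. PTX3 (0.30) kept its sign but was 2.18 under array weights, 1.17 in edgeR and 1.15 in DESeq2, and HBEGF (0.42) was 0.84, 0.79 and 0.76. A pseudocount of 0.1 moved BTC from 0.50 to 1.23 and EREG from 0.37 to 0.83, while a pseudocount of 5 moved them to 0.15 and 0.11. SHAS2 was -0.57 with a pseudocount of 0.1 and -0.096 with 5. When single ovaries were left out, AREG ran from -1.66 to 1.38, PTX3 from -0.79 to 1.86, HBEGF from -0.17 to 0.74, EGFR from -0.10 to 0.56, ERBB2 from -0.33 to 0.54, ERBB3 from -0.46 to 0.64 and SHAS2 from -0.51 to 0.0679, each with a change of sign. TNFAIP6 (-0.73 to -0.0502), EREG (0.0886 to 0.64) and BTC (0.32 to 0.64) kept their sign there. The miRNAs ran from -0.97 to 0.35 (miR-7-5p), -0.37 to 0.86 (miR-125a), -0.69 to 0.40 (miR-125b) and -1.01 to 0.43 (miR-205). The cause of these changes was not tested. In ZD8, AREG had 0 reads, EREG 7, SHAS2 32 and TNFAIP6 42. No paired analysis was possible because SLS and LLS ovaries came from different sows.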
